A study of Mus musculus with 13 samples.

Results

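The genes described here encode the major histocompatibility complex (MHC) of the mouse and the proteins that load it with peptide. They are 32 of the 54513 gene symbols in the count table. A symbol was taken if it began with H2-, the name of the mouse MHC, or was B2m, Cd74, Ciita, Nlrc5, Tap1, Tap2 or Tapbp, if it did not carry the ending -ps, and if its counts summed to more than 130 over the 13 libraries. That left 49 candidates by symbol, of which 32 passed the count limit, and all 32 were also tested. H2-Q1 lay just inside the limit with 146 counts in all, and H2-M5 lay just outside with 102. The members comprise 17 class I genes, 10 class II genes and 5 genes for loading and regulation.

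Total RNA was sequenced from formalin-fixed, paraffin-embedded lung sections of C57Bl/6 males that were 7 to 8 weeks old, at day 21. The bleomycin libraries fall into batch 1 (4 libraries, replicates 5 to 8) and batch 2 (4 libraries, replicates 1 to 4), and the saline libraries (5, replicates 1 to 5) carry the batch label 1. Bleomycin is a DNA-damaging drug that injures the alveoli and is used to model lung fibrosis. Its dose and route, and whether each library comes from an animal of its own, are not given in the labels, so a p-value covers the spread between libraries, which may be technical. The title of bleomycin replicate 8 calls it a control, while its treatment label and library name say bleomycin, so results that turn on it are also given without it. Batch 1 holds both treatments and gives the main comparison. All saline libraries belong to batch 1, so in the comparison of bleomycin batch 2 with saline the batch and the treatment cannot be told apart.

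Total counts were 21727502 to 28885129 in bleomycin batch 1, 6337147 to 12982422 in bleomycin batch 2 and 9527580 to 26043735 in saline. The lung markers Sftpc, Ager and Scgb1a1 summed to 3225 to 5082 CPM in bleomycin batch 1, 4092 to 10018 CPM in bleomycin batch 2 and 9171 to 16063 CPM in saline, so the labelled tissue was present in every library. CPM is the count relative to the library's TMM-scaled total.

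MHC class I molecules sit on nearly all nucleated cells and show peptides from the cytosol to CD8 T cells. Each is a heavy chain (H2-K1 and H2-D1 in C57Bl/6) bound to the light chain beta-2 microglobulin (B2m), and takes up its peptide in the endoplasmic reticulum after transport by TAP1 and TAP2. MHC class II molecules are made mainly by dendritic cells, B cells and macrophages and show peptides from endosomes to CD4 T cells. Their alpha and beta chains are escorted by the invariant chain (Cd74), and H2-DM exchanges its remnant for peptide under the control of H2-DO. The transactivator CIITA switches on class II genes and NLRC5 acts on class I genes. Both work through promoter elements called the X and Y boxes, which are bound by RFX, CREB and NF-Y proteins. In C57Bl/6 mice the gene for the class II E alpha chain is defective, and H2-Ea had 2 counts, all in 1 library.

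Promoter stretches of RefSeq genes (build GRCm38.p6) are shown for 4 class II members that hold the X and Y box pair and for the main class I chains, so that these elements can be seen. Positions count from the first listed transcription start, and each stretch ends at the base before it. In the class II stretches, capitals mark the X box core GCAAC and the Y box core ATTGG on the strand shown. H2-Aa lies at chr17:34287824-34287943 on the minus strand, H2-Eb1 at chr17:34305747-34305866 on the plus strand, H2-Oa at chr17:34092259-34092378 on the plus strand and H2-Ob at chr17:34238785-34238904 on the plus strand.
H2-Aa: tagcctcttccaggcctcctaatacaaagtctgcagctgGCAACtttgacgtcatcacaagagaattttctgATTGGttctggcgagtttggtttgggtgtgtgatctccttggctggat
H2-Eb1: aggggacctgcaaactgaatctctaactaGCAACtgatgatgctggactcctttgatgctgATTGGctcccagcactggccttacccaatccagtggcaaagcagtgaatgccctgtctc
H2-Oa: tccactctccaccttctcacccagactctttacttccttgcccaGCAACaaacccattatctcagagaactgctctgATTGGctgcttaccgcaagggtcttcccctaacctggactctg
H2-Ob: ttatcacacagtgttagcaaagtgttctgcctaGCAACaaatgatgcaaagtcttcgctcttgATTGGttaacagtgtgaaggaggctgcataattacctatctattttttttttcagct

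In the class I stretches, capitals mark the Y box core ATTGG, the CRE-like core TGACG, the kappa B core GGGATTCCC and the interferon element core GAAANNGAA on the strand shown. Matches on the other strand and X box cores are not marked, and H2-D1 holds both. H2-K1 lies at chr17:34000348-34000527 on the minus strand, H2-D1 at chr17:35262914-35263093 on the plus strand and B2m at chr2:122147507-122147686 on the plus strand.
H2-K1: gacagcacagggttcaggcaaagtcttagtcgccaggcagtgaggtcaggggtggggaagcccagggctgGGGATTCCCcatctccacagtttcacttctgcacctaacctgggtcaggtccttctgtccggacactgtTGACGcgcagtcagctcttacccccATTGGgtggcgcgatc
H2-D1: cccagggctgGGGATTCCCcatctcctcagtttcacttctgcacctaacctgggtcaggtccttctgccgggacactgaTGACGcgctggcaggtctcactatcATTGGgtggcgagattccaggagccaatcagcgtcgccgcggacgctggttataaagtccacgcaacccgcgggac
B2m: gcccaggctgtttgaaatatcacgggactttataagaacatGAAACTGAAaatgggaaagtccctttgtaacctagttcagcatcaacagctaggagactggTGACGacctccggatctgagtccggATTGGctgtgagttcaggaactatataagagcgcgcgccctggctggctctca

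The printed matches do not overlap each other. The X box core followed by the Y box core, with their first bases 20 to 40 apart, was in the windows of 5 of 8 class II genes with a window (H2-Aa, H2-Eb1, H2-Eb2, H2-Oa and H2-Ob, 30 to 33 bases apart) and 0 of 12 class I genes. It was in 1.02% of all 32851 windows of 300 bases, searched on both strands. The kappa B core was in a window of 4 of 12 class I genes (H2-K1, H2-D1, H2-Q6 and H2-Q7), 0 of 8 class II genes and in 0.353% of all windows. The Y box core alone was in a window of 11 of 12 class I and 8 of 8 class II genes, against 37.4% of all windows. The X box core alone was in a window of 3 of 12 class I and 6 of 8 class II genes, against 35.2% of all windows. The CRE-like core was in a window of 8 of 12 class I genes, 1 of 8 class II genes and in 20.8% of all windows. The interferon element core was in 3 of 12, 0 of 8 and 8.56%. Members are counted by gene, with a match in any of its windows, and the percentages by window. H2-K1 and H2-DMa have more than 1 window, so the counts and the percentages differ in unit. These matches describe letters, not bound sites.

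Of the 32 genes, 23 rose in bleomycin batch 1 over saline and 0 fell, by edgeR's quasi-likelihood test with Benjamini-Hochberg adjustment. Among all 20468 genes tested, 17.5% were called higher and 13.4% lower. All 10 class II genes rose, all 5 loading genes and regulators rose, and 8 of 17 class I genes rose. The median log2 fold change was 1.68 over the class II genes, 1.01 over the loading genes and regulators and 0.51 over the class I genes, against 0.03 over all genes tested. In 22 of the 32 genes every bleomycin batch 1 library lay above every saline library, and in 0 every one lay below. Such separation was seen for 14% of all genes upward and 11.3% downward. Without bleomycin replicate 8, 22 of the 32 were called higher and 0 lower. With that library counted as saline, as its title has it, 8 were called higher (H2-Aa, H2-Ab1, H2-Eb1, Cd74, H2-DMa, H2-DMb1, Nlrc5 and B2m) and 0 lower. These are whole-lung sections, in which more cells of a type and more RNA per cell cannot be told apart.

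**Figure D1:**
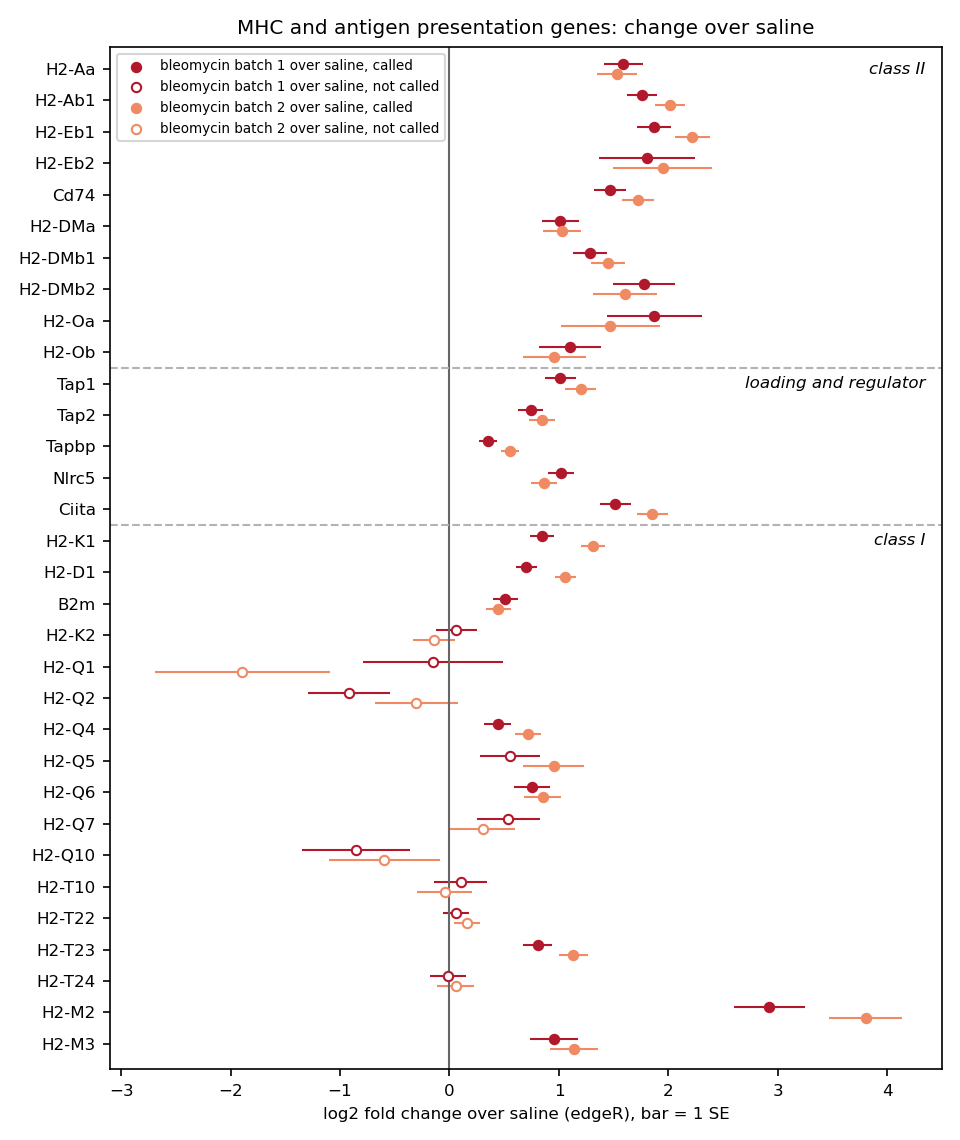
Log2 fold change over saline (x axis) of the 32 genes (y axis, class II at the top, class I at the bottom) in bleomycin batch 1 (dark) and batch 2 (light), with bars of 1 SE and filled points for adjusted p under 0.05. All class II points lie right of 0, and the class I points spread from -1.89 to 3.80.

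Per kilobase of exon, Cd74, H2-Ab1, H2-Eb1 and H2-Aa had the highest levels of the class II genes. Cd74 had 761, 749.9, 1146 and 647 CPM in bleomycin batch 1 (replicates 5 to 8), 867, 1098, 1004 and 974 CPM in bleomycin batch 2 (replicates 1 to 4) and 303, 343, 324, 278 and 242 CPM in saline (replicates 1 to 5). All 8 bleomycin libraries lay above all saline libraries, with replicate 7 highest and replicate 8 lowest. Bleomycin batch 1 over saline gave a log2 fold change of 1.47 ± 0.15 (SE), adjusted p = 3.97e-06.

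H2-Ab1, the A beta chain, had 334, 352, 482 and 270.0 CPM in bleomycin batch 1, 358, 454, 432 and 469 CPM in bleomycin batch 2 and 110.3, 114, 114, 93.0 and 99.3 CPM in saline. The lowest bleomycin library, replicate 8, stood above the highest saline library. In batch 1 it changed by 1.76 ± 0.14 (SE), adjusted p = 7.96e-07, on the log2 scale, a 3.39-fold higher level. H2-Aa, the A alpha chain that pairs with it, had 285, 365, 447 and 197 CPM in bleomycin batch 1, 282, 327, 315 and 315 CPM in bleomycin batch 2 and 115, 123, 112, 84.9 and 103 CPM in saline. The bleomycin and saline libraries did not overlap, and bleomycin batch 1 was spread more widely than batch 2. Its log2 fold change in batch 1 was 1.59 ± 0.18 (SE), adjusted p = 2.72e-05.

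H2-Eb1, an E beta chain, had 193, 199, 324 and 164 CPM in bleomycin batch 1, 239, 311, 278 and 293 CPM in bleomycin batch 2 and 62.0, 58.9, 65.1, 53.4 and 61.7 CPM in saline. Again replicate 7 was the highest and replicate 8 the lowest bleomycin library, and no bleomycin library reached down to saline. Batch 1 gave a log2 fold change of 1.87 ± 0.16 (SE), adjusted p = 1.56e-06, although its partner H2-Ea was nearly without counts in every group. H2-Eb2, a further E beta gene, was at 3.87 ± 1.416 CPM in bleomycin batch 1, 4.27 ± 2.54 CPM in bleomycin batch 2 and 1.08 ± 0.468 CPM in saline (SD, n = 4, 4 and 5). In bleomycin replicate 1 (batch 2) H2-Eb2 was within the saline range.

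The exchange genes rose as well. H2-DMa, the DM alpha chain, had 20.8, 31.3, 39.5 and 21.3 CPM in bleomycin batch 1, 26.2, 30.9, 27.7 and 29.0 CPM in bleomycin batch 2 and 12.8, 15.3, 13.3, 15.5 and 13.1 CPM in saline, without overlap between bleomycin and saline. Its log2 fold change in batch 1 was 1.01 ± 0.17 (SE), adjusted p = 0.000343. Its exons overlap those of Brd2 on the opposite strand in GENCODE M21, and the labels do not say whether counting used strand. H2-DMb1, a DM beta chain, had 25.1, 31.0, 38.8 and 21.5 CPM in bleomycin batch 1, 34.0, 34.8, 34.2 and 27.8 CPM in bleomycin batch 2 and 11.3, 11.9, 13.7, 10.999 and 11.9 CPM in saline. No library of one treatment lay within the range of the other, and the log2 fold change was 1.28 ± 0.15 (SE), adjusted p = 2.11e-05. H2-DMb2, its near copy, changed by 1.78 on the log2 scale. H2-DMb1 and H2-DMb2 share 22.7% and 24.8% of their exonic 50-base stretches with other genes, each chiefly with the other. Reads could thus be split between them, and their separate values are uncertain.

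H2-Oa and H2-Ob form H2-DO, which restrains H2-DM and is best known from B cells. H2-Ob had 15.98, 11.4, 17.04 and 10.2 CPM in bleomycin batch 1, 5.65, 13.5, 13.02 and 17.1 CPM in bleomycin batch 2 and 8.27, 7.19, 6.93, 3.65 and 5.74 CPM in saline. Bleomycin replicate 1 lay within the saline range, while the other bleomycin libraries lay above it. Its log2 fold change in batch 1 was 1.10 ± 0.28 (SE), adjusted p = 0.00746. H2-Oa had 2.72, 3.40, 3.98 and 3.09 CPM in bleomycin batch 1, 0.996, 2.45, 3.21 and 3.22 CPM in bleomycin batch 2 and 0.341, 1.86, 0.730, 0.754 and 1.03 CPM in saline. In batch 1 its groups did not overlap and the log2 fold change was 1.87 ± 0.44 (SE), adjusted p = 0.00416, and bleomycin replicate 1 was again within the saline range. The summed B cell markers in that library were 46.3 CPM, the lowest of the 8 bleomycin libraries, and their part in these values was not tested.

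**Figure D2:**
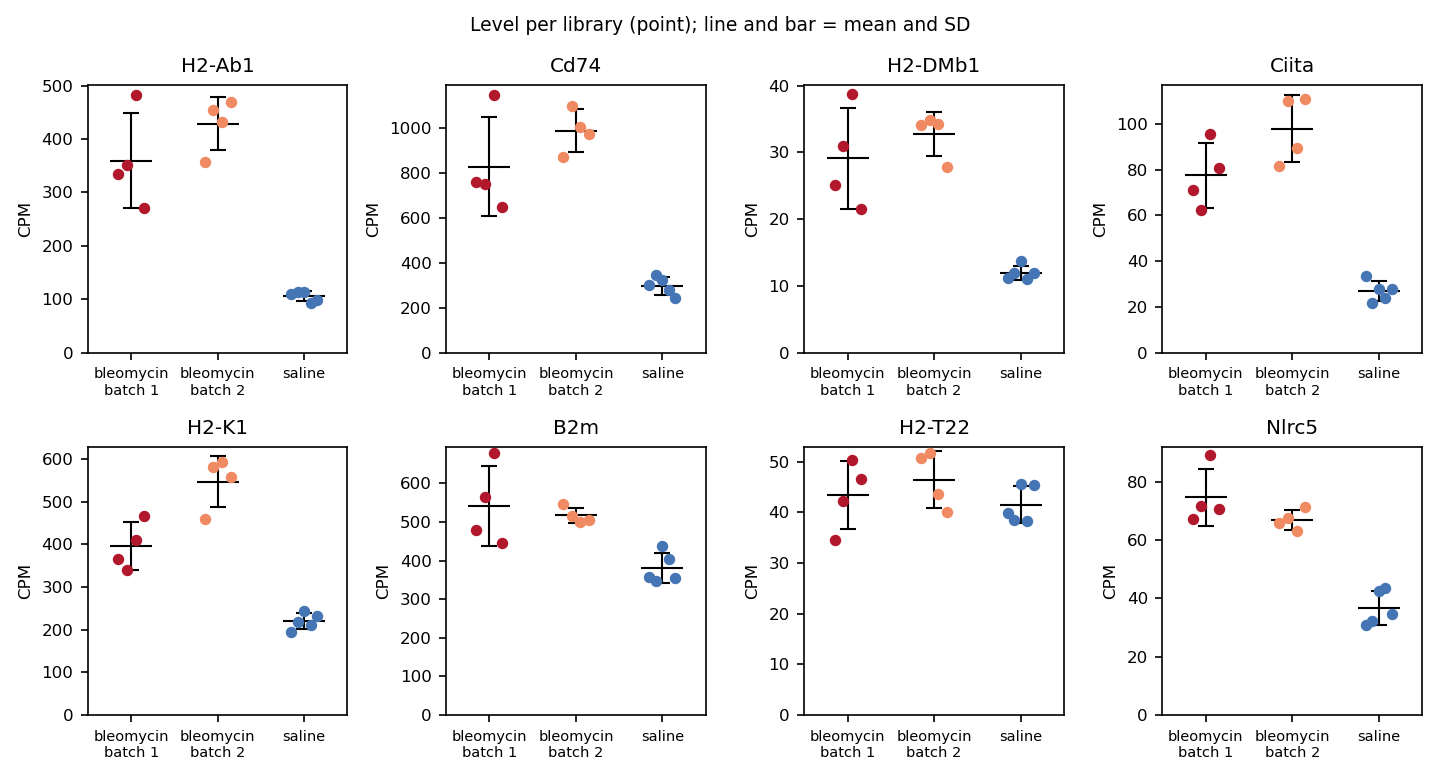
CPM in each library (points) with mean and SD for 4 class II genes and regulators (top row) and 4 class I genes and regulators (bottom row), with bleomycin batch 1, bleomycin batch 2 and saline from left to right. 7 of the 8 panels show bleomycin above saline without overlap, and H2-T22 shows overlapping groups.

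The class II transactivator Ciita also rose. It had 71.1, 62.4, 95.6 and 80.8 CPM in bleomycin batch 1, 81.5, 109.8, 89.6 and 111 CPM in bleomycin batch 2 and 33.4, 21.6, 28.0, 24.01 and 28.0 CPM in saline, and no bleomycin library overlapped saline. Its rise in batch 1 was 1.52 ± 0.14 (SE), adjusted p = 2.63e-06, on the log2 scale. Nlrc5, the class I transactivator, had 67.3, 71.5, 89.1 and 70.5 CPM in bleomycin batch 1, 65.8, 67.4, 63.0 and 71.3 CPM in bleomycin batch 2 and 30.9, 32.1, 42.6, 43.6 and 34.5 CPM in saline. Its groups did not overlap either, and the log2 fold change was 1.02 ± 0.12 (SE), adjusted p = 1.47e-05. Exons of Ciita overlap Dexi on the opposite strand, and those of Nlrc5 overlap 9330175E14Rik.

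Among the loading genes, Tap1, a subunit of the peptide transporter, had 45.8, 54.8, 67.2 and 66.5 CPM in bleomycin batch 1, 66.4, 70.8, 54.0 and 75.7 CPM in bleomycin batch 2 and 28.8, 31.1, 35.4, 25.3 and 24.5 CPM in saline. Every bleomycin library was above every saline library, and the log2 fold change in batch 1 was 1.01 ± 0.14 (SE), adjusted p = 6.9e-05. Its exons overlap those of Psmb9 on the opposite strand. Tap2, the other transporter subunit, had 44.3, 42.7, 45.0 and 47.9 CPM in bleomycin batch 1, 35.7, 48.7, 55.4 and 53.2 CPM in bleomycin batch 2 and 28.9, 25.5, 27.5, 27.0 and 25.3 CPM in saline. The bleomycin batch 1 libraries lay close together and above saline, with a log2 fold change of 0.74 ± 0.11 (SE), adjusted p = 0.000183. Exons of Tap2 overlap those of Gm15821 and Gm20496 on the opposite strand. Tapbp encodes tapasin, which bridges the transporter and the class I heavy chain. It had 147, 160.5, 179 and 169 CPM in bleomycin batch 1, 195, 186, 187 and 186 CPM in bleomycin batch 2 and 130.3, 135, 141, 119 and 118 CPM in saline. The groups were separate but close, and the log2 fold change of 0.35 ± 0.08 (SE), adjusted p = 0.00452 was the lowest of the 5 loading genes and regulators. Exons of Tapbp overlap those of Zbtb22 on the same strand and Gm19412 on the opposite strand.

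The classical class I heavy chains also rose, with smaller log2 fold changes than the class II chains. H2-K1 had 366, 339, 409 and 467 CPM in bleomycin batch 1, 458, 580.5, 592 and 558 CPM in bleomycin batch 2 and 196, 218, 243, 211 and 232 CPM in saline. Bleomycin replicate 8, the lowest batch 1 library for Cd74, was the highest batch 1 library here. Over saline, batch 1 was higher by 0.84 ± 0.11 (SE), adjusted p = 3.68e-05, on the log2 scale. H2-D1 had 481, 487, 535 and 614 CPM in bleomycin batch 1, 639, 699, 715 and 659 CPM in bleomycin batch 2 and 313, 358, 359.8, 313 and 285 CPM in saline. The order of the groups was the same as for H2-K1, with no overlap between bleomycin and saline, and the log2 fold change was 0.70 ± 0.10 (SE), adjusted p = 7.12e-05.

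B2m, the light chain shared by all these heavy chains, had 479.6, 564, 678 and 445 CPM in bleomycin batch 1, 546, 516, 501 and 506 CPM in bleomycin batch 2 and 357, 348, 438, 404 and 354 CPM in saline. The lowest bleomycin value, in replicate 8, was just above the highest saline value. The log2 fold change in batch 1 was 0.51 ± 0.11 (SE), adjusted p = 0.00325. H2-K1 and H2-D1 share 9.63% and 12.8% of their exonic 50-base stretches with other genes of the family, while B2m shares 0%.

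Of the 13 non-classical class I genes, 5 rose in batch 1 (H2-Q4, H2-Q6, H2-T23, H2-M2 and H2-M3), 0 fell and 8 were not called. Values in every library are given for the 4 of highest mean CPM. H2-T23 encodes Qa-1, a ligand of the CD94 and NKG2A receptor of NK and T cells. It had 54.6, 43.8, 51.0 and 64.0 CPM in bleomycin batch 1, 64.1, 62.6, 68.7 and 71.8 CPM in bleomycin batch 2 and 26.5, 26.1, 38.6, 27.7 and 33.3 CPM in saline, with no overlap. The log2 fold change in batch 1 was 0.81 ± 0.13 (SE), adjusted p = 0.000263. H2-Q4 had 72.3, 66.7, 84.9 and 102 CPM in bleomycin batch 1, 105, 95.5, 107 and 87.4 CPM in bleomycin batch 2 and 58.6, 67.7, 66.9, 55.9 and 51.8 CPM in saline. Bleomycin replicate 6 (batch 1) lay within the saline range. The log2 fold change was 0.44 ± 0.12 (SE), adjusted p = 0.0125, and without bleomycin replicate 8 the adjusted p was 0.0794.

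H2-T22, a ligand of gamma delta T cells, had 34.6, 42.2, 50.4 and 46.5 CPM in bleomycin batch 1, 50.6, 51.6, 43.5 and 39.98 CPM in bleomycin batch 2 and 39.9, 38.5, 45.6, 38.3 and 45.4 CPM in saline. The groups overlapped, and the log2 difference was 0.06 ± 0.12 (SE), adjusted p = 0.727, with an interval of 2 SE either side from -0.18 to 0.30. H2-T22 shares 34.5% of its exonic 50-base stretches with other genes, chiefly H2-T10. H2-T24 had 15.3, 14.1, 18.5 and 19.0 CPM in bleomycin batch 1, 14.6, 17.4, 20.7 and 17.3 CPM in bleomycin batch 2 and 14.9, 12.1, 19.8, 17.2 and 20.4 CPM in saline. Its groups also overlapped, with a log2 difference of -0.02 ± 0.16 (SE), adjusted p = 0.955 and an interval of 2 SE from -0.35 to 0.31. A log2 difference of 1 lies outside both intervals.

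The remaining non-classical genes were at a mean of 0.202 to 14.8 CPM per group. H2-M2 was singled out after its values were seen, because it had the greatest rise of the 32 genes. It had 5.36, 3.99, 10.9 and 4.96 CPM in bleomycin batch 1, 8.97, 9.39, 10.2 and 18.01 CPM in bleomycin batch 2 and 0.852, 0.696, 0.949, 0.691 and 0.883 CPM in saline, all bleomycin libraries above all saline libraries. Its log2 fold change in batch 1 was 2.92 ± 0.33 (SE), adjusted p = 1.12e-05. Its lowest library held 6 counts and its highest 277. H2-M3, which presents peptides that begin with N-formyl methionine, changed by 0.95 ± 0.22 and H2-Q6, a Qa-2 family gene, by 0.76 ± 0.17 on the log2 scale (SE).

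The uncalled genes H2-K2, H2-Q1, H2-Q2, H2-Q5, H2-Q7, H2-Q10 and H2-T10 had log2 differences of -0.92 (H2-Q2) to 0.55 (H2-Q5). H2-Q2, also chosen after its values were seen, had 2.68, 0.833, 1.496 and 1.10 CPM in bleomycin batch 1, 1.99, 2.24, 2.87 and 2.20 CPM in bleomycin batch 2 and 3.24, 3.83, 2.85, 2.95 and 1.62 CPM in saline. Bleomycin replicate 5 lay within the saline range, and the adjusted p was 0.0725, but 0.0392 with DESeq2, 0.0250 with limma-voom, 0.0126 without bleomycin replicate 5 and 0.0407 without saline replicate 5. In 18 of 22 alternatives H2-Q2 was not called, for example at adjusted p = 0.185 without bleomycin replicate 6. H2-K2, H2-Q5 and H2-T10 are annotated as pseudogenes or polymorphic pseudogenes in GENCODE M21. H2-Q5, H2-Q6 and H2-Q7 share 26.4% to 36.4% of their exonic 50-base stretches with other genes, so the values of single Q genes are uncertain.

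**Figure D3:**
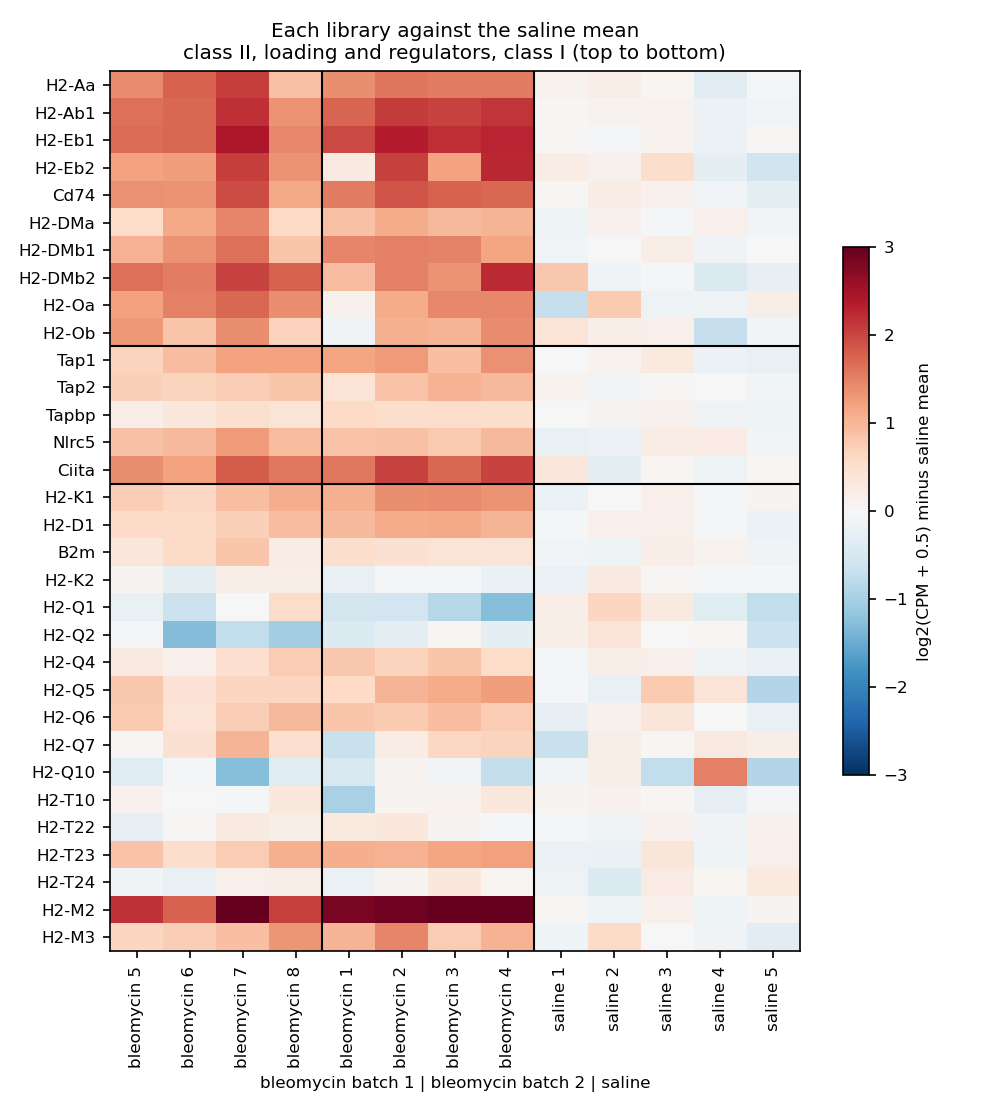
Log2(CPM + 0.5) of each gene (rows, class II, loading genes and regulators, class I) in each library (columns, bleomycin batch 1, bleomycin batch 2, saline), minus the saline mean, red for higher. Of the 80 class II cells in the bleomycin columns 79 lie above the saline mean, all but H2-Ob in replicate 1, and replicate 7 has the highest mean over these genes, and several class I rows are pale throughout.

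The levels were also set beside each other per kilobase of exon. In bleomycin batch 1 B2m was highest at 629.9 CPM per kb, followed by Cd74 at 492, H2-D1 at 205, H2-Ab1 at 140.0, H2-K1 at 135, H2-Eb1 at 113 and H2-Aa at 85.2 CPM per kb. In saline the order of levels was B2m at 442 CPM per kb, Cd74 at 178, H2-D1 at 126.2, H2-K1 at 74.9, H2-Ab1 at 41.3, Tapbp at 35.4, H2-Eb1 at 31.0 and H2-Aa at 28.3 CPM per kb. In bleomycin batch 1 the ranges of B2m and Cd74 overlapped, those of Cd74 and H2-D1 did not, and from H2-D1 on each gene overlapped the next. In saline the ranges of the first 5 genes did not overlap, and from H2-Ab1 on each gene overlapped the next. Exon lengths are from GENCODE M21.

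Class I and class II were compared within each library, where library scaling drops out. The ratio of Cd74 to B2m counts was 1.59, 1.33, 1.69 and 1.45 in bleomycin batch 1, 1.59, 2.13, 2.00 and 1.92 in bleomycin batch 2 and 0.847, 0.987, 0.741, 0.688 and 0.685 in saline. Every bleomycin library had more Cd74 than B2m counts and every saline library fewer. The mean log2 ratio was 0.59 ± 0.15 in bleomycin batch 1 and -0.35 ± 0.23 in saline (SD, n = 4 and 5). The difference of 0.95, a 1.93-fold higher ratio, gave p = 0.00794 in an exact two-sided permutation test, the smallest p that 4 against 5 libraries can give, and 0.0159 after Benjamini-Hochberg adjustment over the 2 ratios tested. With bleomycin replicate 8 counted as saline the adjusted p was 0.0714. Without any 1 of saline replicates 2 to 5 it was 0.0571, where the groups still did not overlap and the differences were 0.90 to 1.03.

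The ratio of Ciita to Nlrc5 counts was 1.06, 0.872, 1.07 and 1.15 in bleomycin batch 1, 1.24, 1.63, 1.423 and 1.55 in bleomycin batch 2 and 1.08, 0.672, 0.657, 0.552 and 0.813 in saline. Saline replicate 1 lay among the bleomycin batch 1 libraries, and the other 4 saline libraries lay below them. The mean log2 ratio was 0.04 ± 0.17 in bleomycin batch 1 and -0.45 ± 0.37 in saline (SD, n = 4 and 5). The difference of 0.49 gave p = 0.0476 in the exact two-sided permutation test, also 0.0476 after adjustment. The call held without saline replicate 1 and was lost without each of the other 8 libraries, at adjusted p of 0.0714 to 0.125.

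A further 4 ratios are given as description, with no test. H2-K1 to B2m was 0.764, 0.601, 0.603 and 1.05 in bleomycin batch 1, 0.840, 1.12, 1.18 and 1.10 in bleomycin batch 2 and 0.547, 0.628, 0.556, 0.523 and 0.657 in saline, so replicate 8 stood above the other batch 1 libraries. Cd74 to H2-Ab1 was 2.28, 2.13, 2.38 and 2.40 in bleomycin batch 1, 2.42, 2.42, 2.32 and 2.08 in bleomycin batch 2 and 2.74, 3.02, 2.85, 2.99 and 2.44 in saline. Each saline library had a higher ratio than every bleomycin library. Ptprc, the pan-leukocyte gene, was higher in bleomycin batch 1 by 1.20 ± 0.11 on the log2 scale. H2-Ab1 to Ptprc was 1.29, 1.28, 1.51 and 1.10 in bleomycin batch 1, 1.48, 2.06, 2.16 and 1.79 in bleomycin batch 2 and 0.905, 0.991, 0.8001, 0.957 and 0.820 in saline, with every bleomycin library above every saline library. Cd74 to Ptprc ranged from 2.63 to 3.59 in bleomycin batch 1, 3.58 to 5.01 in bleomycin batch 2 and 2.00 to 2.99 in saline, with overlap in batch 1.

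**Figure D4:**
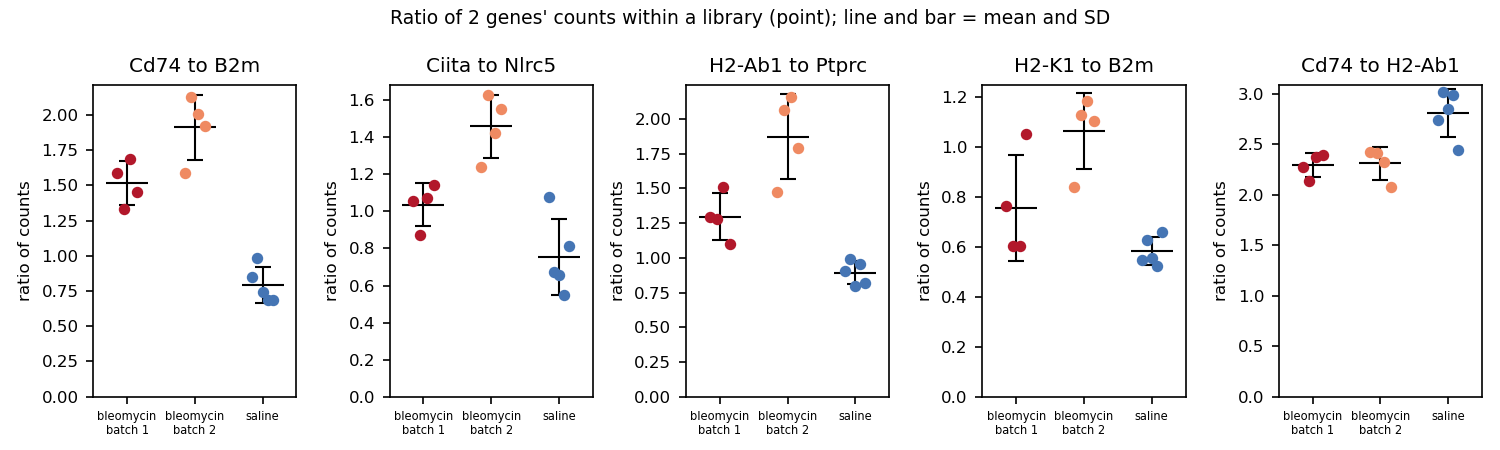
Ratio of the counts of 2 genes within each library (points, with mean and SD) for 5 pairs, with bleomycin batch 1, bleomycin batch 2 and saline from left to right. Cd74 to B2m and H2-Ab1 to Ptprc separate bleomycin from saline upward, Cd74 to H2-Ab1 downward, and H2-K1 to B2m overlaps in batch 1.

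The summed CPM of all class II genes was 1354 to 2525 in bleomycin batch 1, 1823 to 2290.2 in bleomycin batch 2 and 542 to 680.5 in saline, and that of all class I genes 1568 to 1902, 1939 to 2126 and 1046 to 1264 CPM in the same groups. Summed markers of dendritic cells, B cells, monocytes with interstitial macrophages, and T and NK cells moved in the same direction as these sums. Those of alveolar macrophages and alveolar type 2 cells did not. Calls in this and the following lists are for batch 1 against saline unless stated. Among all genes tested, 17.5% were called higher there and 13.4% lower. Dendritic cell markers were higher for 7 of 10 genes and lower for 0, and summed to 194 to 278 CPM in bleomycin batch 1, 207 to 254 CPM in bleomycin batch 2 and 76.7 to 95.8 CPM in saline. Itgax was the largest part of the bleomycin sums. It had 71.1 to 106 CPM in bleomycin batch 1, 91.2 to 129 CPM in bleomycin batch 2 and 17.5 to 27.3 CPM in saline. Zbtb46 overlapped saline, at 39.3, 35.9, 47.9 and 35.3 CPM in bleomycin batch 1 and 31.9, 35.7, 46.5, 40.8 and 44.9 CPM in saline. B cell markers were higher for 6 of 7 genes and lower for 0, and summed to 50.4 to 100.3 CPM in bleomycin batch 1, 46.3 to 124 CPM in bleomycin batch 2 and 15.7 to 38.1 CPM in saline.

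Monocyte and interstitial macrophage markers were higher for 9 of 10 genes and lower for 0, and summed to 2098 to 2461 CPM in bleomycin batch 1, 2597 to 3074 CPM in bleomycin batch 2 and 1528 to 1895 CPM in saline. Lyz2, which alveolar macrophages and type 2 cells also make, held most of that sum, at 1158 to 1664 CPM in bleomycin batch 1, 1790 to 2474 CPM in bleomycin batch 2 and 1278 to 1647 CPM in saline. The other 9 genes summed to 489 to 979 CPM in bleomycin batch 1, 593 to 918 CPM in bleomycin batch 2 and 238 to 252 CPM in saline. In all 3 of these lists the sums of bleomycin and saline libraries did not overlap. Alveolar macrophage markers were higher for 0 and lower for 1 of 7 genes, at 150.5 to 291 CPM in bleomycin batch 1, 143 to 278 CPM in bleomycin batch 2 and 155 to 437 CPM in saline. The count of lower genes is close to the 13.4% of all genes tested. Against saline, bleomycin batch 2 had 1 of these genes higher and 2 lower. T and NK cell markers were higher for 3 of 8 genes and lower for 0, at 36.9 to 52.3 CPM in bleomycin batch 1, 37.7 to 50.7 CPM in bleomycin batch 2 and 15.9 to 34.2 CPM in saline. Their sums in the bleomycin libraries also lay above those in all saline libraries.

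Alveolar type 2 markers, from an epithelial cell that also makes class II, were lower for 3 of 6 genes and higher for 0 in batch 1. They summed to 2431 to 4716 CPM in bleomycin batch 1, 3123 to 7721 CPM in bleomycin batch 2 and 5734 to 7585 CPM in saline. Endothelial markers were lower for 2 of 5 genes and higher for 0 in batch 1. They summed to 885 to 1241 CPM in bleomycin batch 1, 1020.4 to 1192 CPM in bleomycin batch 2 and 1167 to 1465 CPM in saline. In bleomycin batch 2 against saline, 0 genes of either list were called lower and 0 higher. No marker was at 0 in every library, and only Ncr1 was at 0 in some. The part of these cell types in the rise of the MHC genes was not tested.

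Enzymes of the class II pathway mostly rose. Of 8 tested enzymes of class II processing 7 rose and 1 fell in batch 1, with a list median of 1.28. Ctss, the protease that trims the invariant chain, had 261, 451, 432 and 437 CPM in bleomycin batch 1, 610.3, 426, 398 and 390.1 CPM in bleomycin batch 2 and 65.8, 54.5, 68.8, 56.6 and 48.1 CPM in saline. All bleomycin libraries lay far above saline, with a log2 fold change of 2.75 ± 0.18 (SE), adjusted p = 4.39e-07. The cathepsins Ctsh and Ctsb rose by 1.08 ± 0.13 and 1.21 ± 0.16 on the log2 scale (SE). The ubiquitin ligases that remove class II from the surface went in opposite directions. Marchf1 rose, with 24.3, 39.1, 38.7 and 31.8 CPM in bleomycin batch 1, 27.1, 27.2, 21.6 and 19.6 CPM in bleomycin batch 2 and 11.9, 12.6, 11.7, 11.9 and 12.7 CPM in saline and a log2 fold change of 1.46 ± 0.15 (SE), adjusted p = 4.34e-06. Marchf8 fell to 63.1 ± 3.85 CPM in bleomycin batch 1, against 82.5 ± 6.15 CPM in saline (SD, n = 4 and 5), with a log2 fold change of -0.39 ± 0.09 (SE), adjusted p = 0.00299.

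Of 9 genes for the proteins that bind class II promoters 2 rose and 0 fell, with a list median of 0.04. Among all genes tested 17.5% were called higher, so this count is close to the background. Rfx5, the DNA-binding subunit of RFX, had 28.3, 33.4, 28.1 and 32.9 CPM in bleomycin batch 1, 26.1, 32.7, 28.5 and 32.1 CPM in bleomycin batch 2 and 23.4, 20.3, 16.9, 20.2 and 23.7 CPM in saline, without overlap in batch 1. Its log2 fold change was 0.55 ± 0.12 (SE), adjusted p = 0.00304. Nfya, an NF-Y subunit, rose by 0.40 ± 0.11 (SE). Rfxank, Rfxap, Nfyb, Nfyc, Creb1, Crebbp and Ep300 were not called, with log2 differences of -0.20 to 0.26.

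For class I, 6 of 10 proteasome and peptidase genes rose and 0 fell, with a median of 0.32. The immunoproteasome subunit Psmb8 had 45.4, 53.1, 66.1 and 47.9 CPM in bleomycin batch 1, 52.6, 52.7, 49.6 and 52.0 CPM in bleomycin batch 2 and 25.8, 28.5, 27.1, 22.4 and 24.1 CPM in saline, clearly apart. Its log2 fold change was 1.06 ± 0.11 (SE), adjusted p = 8.01e-06. Psmb9, a further immunoproteasome subunit that overlaps Tap1 exons, rose by 0.71 ± 0.19, the activator Psme1 by 0.54 ± 0.10 and the constitutive subunit Psmb5 by 0.54 ± 0.16 on the log2 scale (SE). Among 6 loading partners 5 rose and 0 fell, with a median of 0.54. The chaperones Calr and Hspa5 rose by 1.09 ± 0.16 and 0.89 ± 0.13, the disulfide isomerase Pdia3 by 0.51 ± 0.10 and the translocon gene Sec61a1 by 0.57 ± 0.12 (SE). Tapbpl, a tapasin relative, was not called (0.04 ± 0.15). Among 8 class I-like genes outside the H2 names, Ulbp1, a ligand of NKG2D, rose by 1.21 ± 0.35 and Azgp1 fell, with a log2 fold change of -1.39 ± 0.35, and the other 6 were not called, with a list median of 0.21. Both counts of this list are close to the shares of all genes tested, 17.5% higher and 13.4% lower.

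Of 15 tested interferon and NF-kB regulators 12 rose and 0 fell, with a median of 0.47. The 4 of lowest p were Irf8 at 1.34 ± 0.10, Relb at 1.64 ± 0.16, Nfkb1 at 0.68 ± 0.08 and Irf7 at 1.55 ± 0.19 on the log2 scale (SE). Irf1, a transcription factor that interferon gamma induces, had 55.9, 45.1, 69.9 and 56.6 CPM in bleomycin batch 1, 62.6, 54.7, 79.6 and 80.4 CPM in bleomycin batch 2 and 54.9, 56.4, 66.1, 53.2 and 64.5 CPM in saline. The groups overlapped, and the log2 difference was -0.05 ± 0.14 (SE), adjusted p = 0.797. Ifng itself averaged 0.0197 CPM in bleomycin batch 1, 0 CPM in bleomycin batch 2 and 0.0146 CPM in saline and was not tested.

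Of 7 genes for costimulatory or inhibitory molecules, which T cells read beside the MHC, 6 rose and 0 fell, with a median of 1.49. Cd86 had 12.4, 19.4, 15.5 and 12.9 CPM in bleomycin batch 1, 9.80, 9.08, 8.62 and 9.37 CPM in bleomycin batch 2 and 3.41, 2.32, 3.39, 2.64 and 2.94 CPM in saline. It was above saline in all bleomycin libraries, with a log2 fold change in batch 1 of 2.34 ± 0.19 (SE), adjusted p = 8.39e-07. Cd83 rose by 1.73 ± 0.18 (SE). The genes of the inhibitory ligands PD-L1 (Cd274) and PD-L2 (Pdcd1lg2) rose by 0.97 ± 0.17 and 3.46 ± 0.74 (SE). A list of 8 genes, for receptors that read MHC molecules and the related receptor gene Lilrb4a, had 4 higher and 0 lower, with a median of 1.37. Cd4, the coreceptor for class II, had 9.72, 12.5, 18.1 and 16.7 CPM in bleomycin batch 1, 11.3, 13.6, 14.6 and 15.2 CPM in bleomycin batch 2 and 5.24, 3.94, 3.43, 2.77 and 3.24 CPM in saline, a log2 fold change of 1.93 ± 0.22 (SE), adjusted p = 1.32e-05. The inhibitory receptors Lilrb4a and Pirb rose by 2.82 ± 0.30 and 2.18 ± 0.25, and Lag3 by 1.47 ± 0.49 (SE). Cd8a, the coreceptor for class I, was not called (0.77 ± 0.40).

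**Figure D5:**
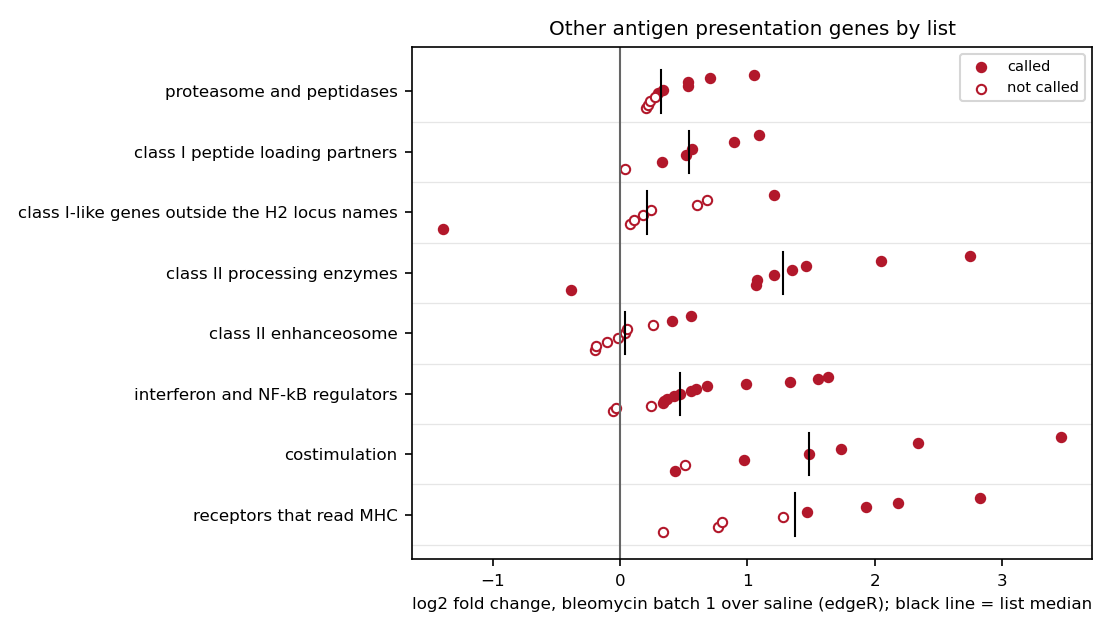
Log2 fold change of bleomycin batch 1 over saline (x axis) for each tested gene of 8 other antigen presentation lists (y axis), with filled points for adjusted p under 0.05 and a black line at each list's median. The class II processing, costimulation and receptor lists have medians above 1.2, and the enhanceosome list lies near 0.

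Against the same saline libraries, bleomycin batch 2 gave 24 of 32 genes higher and 0 lower, beside 15.7% higher and 13.2% lower of all genes tested. These were all 10 class II genes (median log2 fold change 1.56), all 5 loading genes and regulators (0.86) and 9 of 17 class I genes (0.44). Among the class II genes, the call of H2-Oa (adjusted p = 0.0219) was lost without any 1 of bleomycin replicates 3 and 4 or saline replicates 3 and 4, at adjusted p of up to 0.0770. That of H2-Ob (adjusted p = 0.0196) was lost without any 1 of bleomycin replicates 2 to 4 or saline replicate 4, at up to 0.0822, and by limma-voom, at 0.0521. Since both comparisons use the saline libraries, they are given side by side. Cd74 changed by 1.72 ± 0.15 in batch 2 and 1.47 ± 0.15 in batch 1, H2-Ab1 by 2.01 ± 0.14 and 1.76 ± 0.14, Ciita by 1.85 ± 0.14 and 1.52 ± 0.14, and B2m by 0.44 ± 0.11 and 0.51 ± 0.11 on the log2 scale (SE). H2-Q5 was called in batch 2 (0.95 ± 0.28 (SE), adjusted p = 0.0168) and not in batch 1 (adjusted p = 0.136), and its direct test between batches gave adjusted p = 0.579. Its batch 2 call was lost without bleomycin replicate 3 or 4, at adjusted p = 0.0514 and 0.0551.

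Bleomycin batch 2 was also tested against bleomycin batch 1. Here 1 of 32 genes was called higher and 0 lower, beside 0.547% higher and 1.13% lower of all genes tested. The gene was H2-K1, with a log2 fold change of 0.47 ± 0.11 (SE) and adjusted p = 0.0492. That call held in 5 of 20 alternatives, with adjusted p from 0.00410 to 0.421, and was lost without any 1 of bleomycin replicates 2 to 7 or any 1 saline library. Bleomycin replicate 8, with 467 CPM, lay above replicate 1 of batch 2, with 458 CPM. The other 31 genes were not called, with log2 differences of -1.74 (H2-Q1) to 0.88 (H2-M2). Cd74 differed by 0.26 ± 0.15 and H2-Ab1 by 0.25 ± 0.14, with adjusted p = 0.48 and 0.452.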

How the data were processed

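Gene counts of 13 libraries were used as deposited. The authors deposited raw counts, 1 whole number for each gene symbol and library. The submitters' processing notes name cutadapt 4.4, STAR 2.7.10b, featureCounts 2.0.3, DESeq2 1.42.1 and genome build mm39. The labels do not state the role of each tool, the annotation release, or whether counting used strand or molecular identifiers. Per the labels' protocols, RNA was extracted from a 10 µm section with the RNeasy FFPE Kit, and 8 ng went into the Pico version of the SMARTer Stranded Total RNA-Seq kit, which keeps strand. Total counts were 6337147 to 28885129. Among counts of 1 to 10, 78.4% to 86.1% were even in each library, so a count may not be an independent molecule. The deposited normalized table was not used here.

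Genes were filtered with edgeR 4.0.16 (filterByExpr, 20468 kept), scaled by TMM and tested with robust quasi-likelihood fits over 3 groups (bleomycin batch 1, bleomycin batch 2, saline) in R 4.3.3. Adjusted p under 0.05 was called, and the biological coefficient of variation was 0.306. Log2 ratios of counts took a prior count of 0.5. The test was tried on simulated data first. Alternatives used DESeq2 1.42.0, limma 3.58.1 (voom), RLE size factors, other filters and samples, and leaving out each library.

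The members and lists were chosen with earlier results of these data known. By the rule for named genes, values in every library are given for the main chains, loading genes, class II chaperones and transactivators and the 4 non-classical genes of highest mean CPM. From other lists up to 4 called genes by lowest p in each direction are named, most by their log2 fold change alone. Of those, the genes shown in every library were picked after their values were seen. H2-Eb2, H2-DMb2, H2-M2, H2-M3, H2-Q2, H2-Q5, H2-Q6, Rfxank, Rfxap, Tapbpl, Irf1, Ifng and Cd8a were singled out after their values were seen. Exon lengths, gene types and shared 50-base stretches came from GENCODE M21, matched by symbol for 50671 of 54513 symbols and all 32 members. Its build differs from mm39, so no coordinates of it were joined to the counts. Promoter windows were found for 22 of the 32 members.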

Additional observations from a re-analysis of the deposited data

Results flagged for a closer look

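Of 102 sets of libraries of 1 group and gene or ratio, 7 had a library that stood far from the others of its group, and about 1 in 20 such sets does so by chance. In saline these were H2-Q10 in replicate 4 (10.7 CPM), H2-M3 in replicate 2 (9.16 CPM) and H2-DMb2 in replicate 1 (8.10 CPM). H2-Q10 is known as a secreted class I molecule made mainly in liver. In bleomycin batch 1 it was H2-Eb2 in replicate 7 (5.98 CPM). In bleomycin batch 2 they were H2-M2 in replicate 4 (18.0 CPM), Tapbp in replicate 1 (194.8 CPM) and H2-DMb1 in replicate 4 (27.8 CPM). The 7 cases fall in 6 libraries. H2-K1 was the gene that differed between the bleomycin batches by edgeR's direct test, with a log2 difference of 0.47 (batch 2 minus batch 1).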

How the results depend on the processing

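Against saline, batch 1 had 10 class II genes and 5 loading genes and regulators called higher under RLE size factors and no filter. The same held with DESeq2, limma-voom, batch 1 libraries only, protein-coding genes only and each library left out. The fit with no batch term set all 8 bleomycin libraries, of both batches, against saline, and called the same number of each. Counting bleomycin replicate 8 as saline gave 8 members higher (class I 1, class II 6, loading genes and regulators 1), 645 genes in all in batch 1 and 945 in batch 2, with 13 members higher there, and ratio differences of 0.82 (Cd74 to B2m) and 0.33 (Ciita to Nlrc5), adjusted p = 0.0714 and 0.286. The replicate block gave 3 members higher (class I 0, class II 3, loading genes and regulators 0) and 39 genes in all, since only number 5 links the batch 1 groups, and 11 genes between batches. Deviations of same-numbered libraries from their group means correlated with r of -0.379 to 0.0419. Differently numbered libraries were not compared, so these values do not settle whether the numbers pair the samples.

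Leaving out each library gave 5123 to 6546 genes, 22 to 24 members higher, 0 to 1 lower, class I 7 to 9, class II 10 to 10, loading genes and regulators 5 to 5, Cd74 to B2m 0.89 to 1.03 and Ciita to Nlrc5 0.39 to 0.63. For batch 2 against saline it gave 4711 to 6350 genes, 21 to 24 members higher and 0 to 0 lower. DESeq2 and limma-voom each called 1 member lower in batch 1 (H2-Q2). The share of calls that were higher was 56.7% with edgeR over all genes, 49.4% with DESeq2 and 51.1% with RLE size factors.

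Between batches, under settings chosen after seeing the data, all genes called were 343 by edgeR, 737 by DESeq2, 102 by limma-voom, 79 among protein-coding genes and 148 to 1093 with a library left out (1093 without bleomycin replicate 8, 534 without replicate 1). Members higher were 2 with DESeq2, 0 with limma-voom, protein-coding genes only, replicate 8 as saline or the replicate block, and 0 to 2 with a library left out. The cause was not tested. Low counts limit H2-Q1, H2-Q2, H2-Q10, H2-M2, H2-Oa and H2-Eb2, whose lowest libraries held 0 to 13 counts.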
